A study of Homo sapiens with 9 samples.

Results

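The genes described here are 47 genes of the G1/S transition and of DNA replication, chosen by name. A row of the deposited count table was a member where its Ensembl identifier, without the version, belongs to one of 47 listed symbols. All 47 were found once among the 61853 genes listed, and all 47 passed the expression filter that left 19591 genes for testing. They are measured in 3 libraries of DIS3-sh1 cells and 3 of Scramble cells. DIS3-sh1 cells are 293T cells, a human embryonic kidney line, labelled as a DIS3 knockdown and given the first of 2 shRNAs against DIS3, a catalytic ribonuclease of the nuclear RNA exosome. Scramble cells are 293T cells labelled wild type and given a scramble shRNA. Both groups carry the SV40 large T antigen that defines the line, a viral protein that binds p53 and the RB family and so already releases E2F factors. How the shRNAs were delivered and how long the cells were kept is not given in the sources used here. A further group in the labels, DIS3-sh2, is not analysed here, because the names of the remaining 3 columns of the table match no label. RNA was depleted of ribosomal RNA before sequencing, and libraries held 19800892 to 21100677 counts in DIS3-sh1 and 20722775 to 23532148 counts in Scramble.

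DIS3 was 6.55-fold lower in DIS3-sh1 than in Scramble. Of 5 genes known in 293T cells, LIN28B, NEFM and KRT18 lay at 48.8 CPM or more on average in both groups, while KRT8 averaged 32.5 CPM in DIS3-sh1 and 4.65 CPM in Scramble and PAX2 4.33 CPM in DIS3-sh1 and 1.67 CPM in Scramble. Of 6 markers of other cell types, CD3E had 0 counts in every library, PTPRC (both leukocytes), ALB (hepatocytes), PECAM1 (endothelium) and MYOD1 (muscle) had at most 0.809 CPM in a library, and COL1A1, a collagen gene of fibroblasts, averaged 25.0 ± 2.17 CPM in DIS3-sh1 and 14.7 ± 0.457 CPM in Scramble (SD, n = 3 each) and was called higher (adjusted p = 3.87e-10). DIS3-sh1 replicate 1 was unlike replicates 2 and 3. Its counts differed from theirs by a chi-square of 5.75 and 5.83 per degree of freedom, whereas those 2 replicates differed from each other by 1.63 and Scramble libraries by 1.89 to 1.97. Small structural RNA, ribosomal RNA and mitochondrial genes took 11.6% to 12.1% of counts in DIS3-sh1 and 7.12% to 7.34% in Scramble. Counts of genes called higher or lower, in each gene list and over all tested genes, were also made without each library. They were also made without those small structural RNA, ribosomal RNA and mitochondrial genes. Other counts below were not. Any further part of these differences in the results, and the part of COL1A1, was not tested.

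Before DNA can be copied, cells in G1 load the MCM helicase onto origins, a step called licensing that needs the origin recognition complex, CDC6 and CDT1. At the G1/S transition, cyclin E with CDK2 and the kinase CDC7 switch the loaded helicase on by adding CDC45 and GINS, and polymerases, the PCNA clamp and its loader RFC then build the fork. Many of these genes are transcribed in late G1 by E2F factors, and they are commonly read as markers of proliferating cells.

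The replication genes did not move as a block. Of the 47 members, 24 fell, 18 rose and 5 were not called at an adjusted p under 0.05 (edgeR quasi-likelihood test, Benjamini-Hochberg adjustment over all 19591 genes). Among all tested genes 32.6% were called lower and 34.5% higher. With upper-quartile scaling, 18 members were lower and 22 higher, so which direction held the majority depended on the scaling. Without DIS3-sh1 replicate 1, 24 fell and 17 rose. Members had a median log2 fold change (DIS3-sh1 over Scramble) of -0.10, against 0.02 for all tested genes, and these were -0.021 and 0.099 with upper-quartile scaling. For 42 of the 47 members the CPM values of the groups were fully separate, where the same held for 69.8% of all tested genes. All members were well expressed, at a mean of 16.2 to 437 CPM over the 6 libraries. Of the 8710 tested coding genes at such levels, 49.7% were called lower and 30.8% higher. The groups were fully separate for 7093 of these 8710 genes, a larger share than among all tested genes.

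Changes were mostly small. The median absolute log2 fold change was 0.25 among members, 0.33 among the coding genes at such levels and 0.41 among all tested genes. CDT1, a licensing factor, was the 1 member that changed by at least 2-fold, a share of 2.13%, against 5.09% of the coding genes at such levels and 14.1% of all tested genes. Summed over the 47 members, the level was 6036 ± 52.7 CPM in DIS3-sh1 and 6181 ± 29.4 CPM in Scramble (SD, n = 3 each). These sums were made with TMM scaling only. Upper-quartile scaling moved the members' median log2 fold change from -0.10 to -0.021, so the direction of this small difference may depend on the scaling. Replicates of these genes lay close together, with a median coefficient of variation of 2.85% in DIS3-sh1 and 3.07% in Scramble. In RNA from whole cultures, fewer cells in S phase and less RNA per cell cannot be told apart, and neither was measured here.

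**Figure D1:**
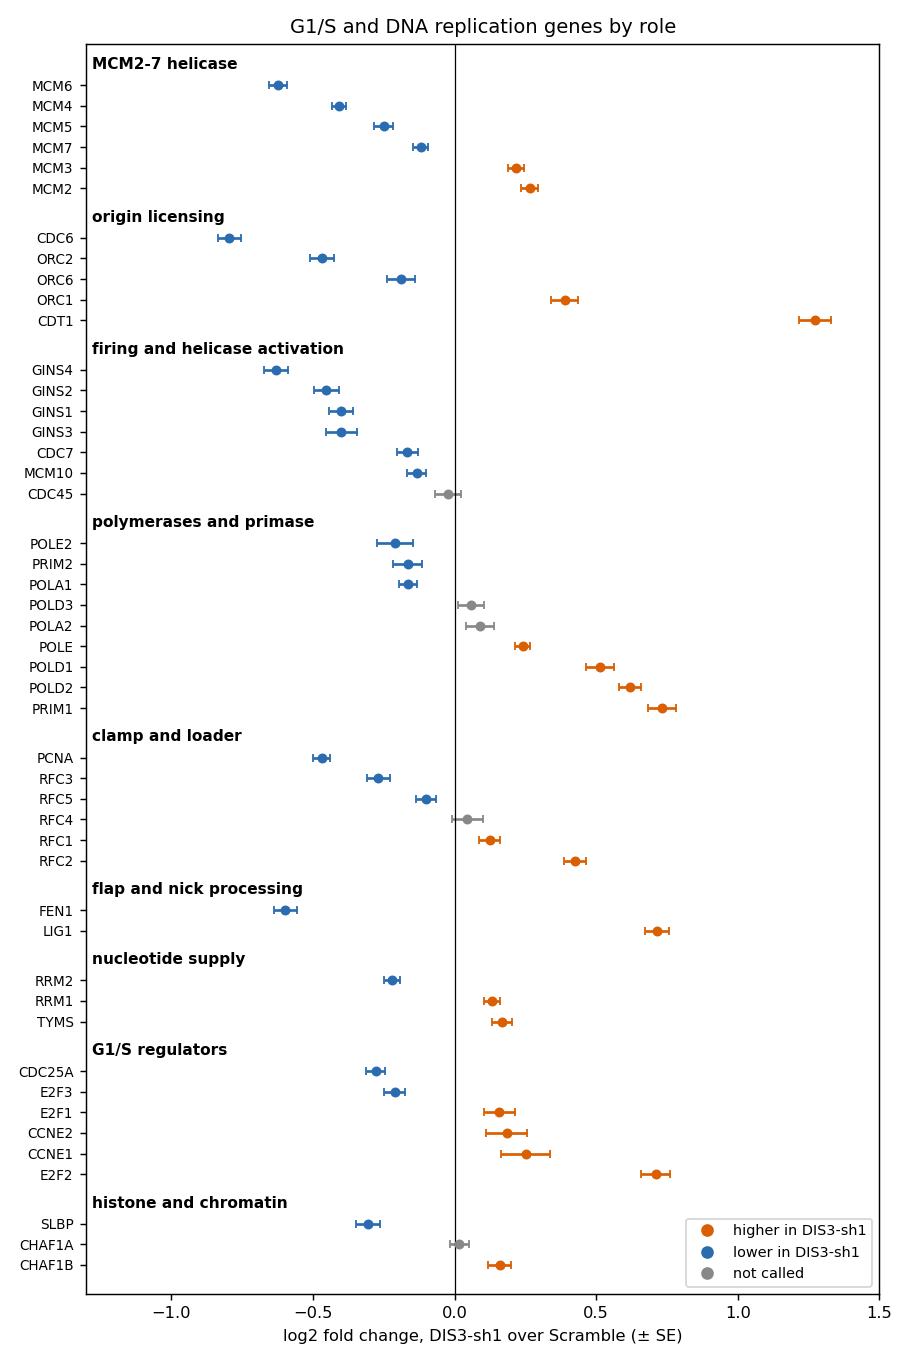
Log2 fold change of each of the 47 genes in DIS3-sh1 over Scramble (x axis), with bars of 1 SE, in the order of their roles in replication; orange marks genes called higher, blue lower and grey not called. Of the 7 genes of origin firing and helicase activation none lies above 0 with this TMM scaling (CDC45 does with upper-quartile scaling, at 0.058), whereas every other role holds genes on both sides, and CDT1 at 1.27 lies farthest from 0.

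The promoters of the members with the largest falls and rises for which a sequence could be printed are shown first, since E2F factors are known to act through sites in such promoters. CDC6 and MCM6 fell and CDT1 and PRIM1 rose. Each sequence runs 5′ to 3′ from 250 bases before to 50 bases after the RefSeq start (GRCh38.p14), with capitals marking letters of the E2F motif (TTTCCCGC, TTTCGCGC, TTTGCCGC or TTTGGCGC) or of the CCAAT box, on either strand.
CDC6 (chr17:40287629-40287928, plus strand): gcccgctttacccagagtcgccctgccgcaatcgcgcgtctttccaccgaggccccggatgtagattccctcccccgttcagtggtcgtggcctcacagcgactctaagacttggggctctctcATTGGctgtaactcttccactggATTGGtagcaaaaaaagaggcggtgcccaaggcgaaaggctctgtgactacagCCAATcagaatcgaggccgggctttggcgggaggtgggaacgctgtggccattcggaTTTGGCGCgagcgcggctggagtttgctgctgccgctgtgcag
MCM6 (chr2:135876394-135876693, minus strand): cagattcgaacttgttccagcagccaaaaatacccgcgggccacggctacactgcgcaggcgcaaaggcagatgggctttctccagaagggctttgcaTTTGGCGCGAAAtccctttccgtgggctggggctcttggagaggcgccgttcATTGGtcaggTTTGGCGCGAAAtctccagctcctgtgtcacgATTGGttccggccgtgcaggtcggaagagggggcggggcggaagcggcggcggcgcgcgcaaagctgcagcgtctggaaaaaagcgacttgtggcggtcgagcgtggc
CDT1 (chr16:88803539-88803838, plus strand): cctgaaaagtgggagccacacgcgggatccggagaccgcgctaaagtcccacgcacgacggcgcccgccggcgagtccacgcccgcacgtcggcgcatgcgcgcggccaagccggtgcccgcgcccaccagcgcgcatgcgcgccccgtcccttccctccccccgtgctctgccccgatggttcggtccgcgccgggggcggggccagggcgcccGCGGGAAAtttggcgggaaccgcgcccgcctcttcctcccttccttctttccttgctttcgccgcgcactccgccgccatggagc
PRIM1 (chr12:56752274-56752573, minus strand): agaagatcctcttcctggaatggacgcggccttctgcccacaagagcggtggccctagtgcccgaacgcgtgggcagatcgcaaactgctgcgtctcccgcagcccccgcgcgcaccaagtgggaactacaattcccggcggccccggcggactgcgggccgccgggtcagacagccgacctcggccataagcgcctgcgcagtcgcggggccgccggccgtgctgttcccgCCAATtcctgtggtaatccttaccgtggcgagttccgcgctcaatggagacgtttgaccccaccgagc

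CDC6 held 1 E2F match, 8 bases downstream of the start, and 3 CCAAT matches. MCM6 held 4 E2F matches, which overlap in pairs because the run TTTGGCGCGAAA reads as a motif on both strands, and 2 CCAAT matches. CDT1, which rose, held 1 E2F match 35 bases upstream of the start, and PRIM1 had no match to the E2F letters in this window and 1 to CCAAT. A promoter was found for 42 members; MCM4, MCM5, GINS4, POLD3 and CCNE2 were not matched. The E2F letters occurred in 21 of the 42 (50%), against 908 of 27305 promoters of the same length over all genes (3.33%) and 5.46% of those of tested coding genes. CCAAT occurred in 24 of the 42 (57.1%), against 35.7% of all promoters. Members that fell and members that rose both held E2F letters, 12 of 21 that fell (57.1%), 8 of 17 that rose (47.1%) and 1 of 4 that were not called. A match of letters is a description of the sequence and not evidence of binding.

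Among the 6 subunits of the MCM helicase, 4 fell and 2 rose. MCM6 (ENSG00000076003.5, minus strand of chromosome 2, 135839626 to 135876426 in hg38) had 138, 135 and 142 CPM in the DIS3-sh1 libraries, against 213, 213 and 214 CPM in the Scramble libraries. Every DIS3-sh1 library lay below every Scramble library, and MCM6 fell by 0.62 ± 0.031 on the log2 scale (SE, adjusted p = 1.64e-17). MCM4 fell by 0.41 ± 0.025 on the log2 scale (SE, adjusted p = 2.13e-15), MCM5 fell by 0.25 and MCM7, whose gene also hosts microRNAs, by 0.12. Upper-quartile scaling removed the call of MCM7 (adjusted p = 0.205). MCM2 (ENSG00000073111.14, plus strand of chromosome 3, 127598223 to 127622436) went the other way, with 351, 327 and 328 CPM in the DIS3-sh1 libraries, against 289, 276 and 272 CPM in the Scramble libraries. The groups did not overlap, and MCM2 rose by a log2 fold change of 0.27 ± 0.030 (SE, adjusted p = 4.43e-09). MCM3 rose by a log2 fold change of 0.22 ± 0.029 (SE, adjusted p = 7.3e-08). The ratio of MCM2 to MCM6 counts, which no scaling can move and which was chosen after these values were seen, was 2.54, 2.42 and 2.31 in the DIS3-sh1 libraries, against 1.36, 1.30 and 1.27 in the Scramble libraries. Summed over the 6 subunits, the level was 1690.0 ± 38.7 CPM in DIS3-sh1 and 1845 ± 22.9 CPM in Scramble (SD, n = 3 each).

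Licensing factors held both ends of the whole set. CDT1 (ENSG00000167513.9, plus strand of chromosome 16, 88803213 to 88809258), which brings the MCM complex to origins, had 253, 219 and 221 CPM in the DIS3-sh1 libraries, against 91.6, 94.3 and 102 CPM in the Scramble libraries. All 3 DIS3-sh1 values were more than double those of Scramble, with replicate 1 the highest. The means were 231 ± 19.2 CPM in DIS3-sh1 and 95.9 ± 5.32 CPM in Scramble (SD, n = 3 each), and CDT1 rose by a log2 fold change of 1.27 ± 0.056 (SE, adjusted p = 2.12e-10). CDC6 (ENSG00000094804.12, plus strand of chromosome 17, 40287633 to 40304657), its partner in loading, had 73.6, 70.2 and 74.2 CPM in the DIS3-sh1 libraries, against 124, 130.3 and 124 CPM in the Scramble libraries. The groups were far apart in the opposite direction, and CDC6 fell by 0.79 ± 0.040 on the log2 scale (SE, adjusted p = 1.34e-17), the largest fall of any member. The ratio of CDT1 to CDC6 counts was 3.44, 3.12 and 2.98 in the DIS3-sh1 libraries, against 0.740, 0.724 and 0.819 in the Scramble libraries. This pair is the members' largest rise and largest fall in these same libraries, so the ratio is no further evidence. Among subunits of the origin recognition complex, ORC1, its cell-cycle regulated ATPase subunit, rose by a log2 fold change of 0.39 ± 0.048 (SE, adjusted p = 2.23e-08). ORC2 fell by 0.47 ± 0.042 on the log2 scale (SE, adjusted p = 2.7e-11), and ORC6, the smallest subunit, fell by 0.19, a call that upper-quartile scaling removed (adjusted p = 0.0556).

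Genes that turn the loaded helicase on were called lower for 6 of 7, with none called higher. Of the coding genes at the members' levels 49.7% were called lower, and of all tested genes 32.6%. GINS4 (ENSG00000147536.12, plus strand of chromosome 8, 41529206 to 41545046), a subunit of the GINS tetramer, had 61.1, 58.6 and 59.5 CPM in the DIS3-sh1 libraries, against 94.5, 94.0 and 88.6 CPM in the Scramble libraries. No library of one group reached the values of the other, and GINS4 fell by 0.63 ± 0.043 on the log2 scale (SE, adjusted p = 4.21e-14). The other GINS genes fell too. GINS2 fell by 0.45 ± 0.044 (SE), GINS1 by 0.40 ± 0.044 and GINS3 by 0.40 ± 0.053 on the log2 scale, so that all 4 subunits fell by 0.40 to 0.63. The falls of CDC7, the kinase that phosphorylates MCM proteins, and of MCM10, which helps start the fork, were smaller, at 0.17 and 0.13. Upper-quartile scaling removed the call of MCM10 (adjusted p = 0.158). CDC45, the third component of the active helicase with MCM and GINS, averaged 67.7 ± 3.61 CPM in DIS3-sh1 and 68.8 ± 2.50 CPM in Scramble (SD, n = 3 each). Its groups overlapped, and it was not called (log2 fold change -0.023 ± 0.047 (SE, adjusted p = 0.682)).

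Of the 9 polymerase and primase genes, 4 rose, 3 fell and 2 were not called. PRIM1 (ENSG00000198056.15, minus strand of chromosome 12, 56731596 to 56752373), the catalytic subunit of primase, had 73.0, 81.2 and 81.0 CPM in the DIS3-sh1 libraries, against 48.4, 47.1 and 45.9 CPM in the Scramble libraries. Every DIS3-sh1 library was above every Scramble library, and PRIM1 rose by a log2 fold change of 0.73 ± 0.049 (SE, adjusted p = 2.33e-14). PRIM1 overlaps 3 other coding genes in the annotation, NACA, the read-through AC117378.1 and HSD17B6, whose log2 fold changes were -0.17, 0.01 and 0.44, and shared reads may have been split among them. PRIM2, the large primase subunit, fell by 0.17 and POLA1, the catalytic subunit of polymerase alpha, by 0.16, while POLA2, its accessory subunit, averaged 55.9 ± 2.33 CPM in DIS3-sh1 and 52.5 ± 1.61 CPM in Scramble (SD, n = 3 each) and was not called (adjusted p = 0.11). Of the 3 member genes of polymerase delta, which copies mainly the lagging strand, 2 were called higher. Among all tested genes 34.5% were called higher, and among the coding genes at the members' levels 30.8%. The catalytic subunit of polymerase delta, POLD1, rose by a log2 fold change of 0.51 ± 0.051 (SE, adjusted p = 1.07e-09). POLD1 overlaps AC020909.1 on the same strand, which had a log2 fold change of 0.71 (7.26 CPM in DIS3-sh1 and 4.43 CPM in Scramble). Reads of POLD1 and AC020909.1 may have been split between them. POLD2, the second subunit of polymerase delta, rose by a log2 fold change of 0.62 ± 0.039 (SE, adjusted p = 3.97e-15). POLD3 averaged 67.0 CPM in DIS3-sh1 and 64.4 CPM in Scramble and was not called (adjusted p = 0.268). POLD4, a polymerase delta gene outside the members, averaged 3.27 CPM in DIS3-sh1 and 3.11 CPM in Scramble. It was not called either (adjusted p = 0.716). For polymerase epsilon, which copies mainly the leading strand, the catalytic subunit POLE rose by a log2 fold change of 0.24 ± 0.027 (SE, adjusted p = 3.93e-09). POLE2 (ENSG00000100479.14, minus strand of chromosome 14, 49643555 to 49688422), its second subunit, had 24.1, 26.5 and 24.2 CPM in the DIS3-sh1 libraries, against 29.2, 28.5 and 28.6 CPM in the Scramble libraries. The groups did not overlap but lay close, and POLE2 fell by 0.21 ± 0.065 on the log2 scale (SE, adjusted p = 0.00527). With upper-quartile scaling the calls of PRIM2 (adjusted p = 0.142) and POLE2 (0.0768) were lost, and POLA2 (0.00323) and POLD3 (0.00900) were called higher.

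PCNA, the ring that holds polymerases on DNA, fell, while the subunits of its loader went both ways. PCNA (ENSG00000132646.11, minus strand of chromosome 20, 5114953 to 5126626) had 171, 174 and 174 CPM in the DIS3-sh1 libraries, against 238, 242 and 239 CPM in the Scramble libraries. The 3 values of each group lay within a few CPM of each other and far from those of the other, and PCNA fell by 0.47 ± 0.029 on the log2 scale (SE, adjusted p = 3.97e-15). RFC2 (ENSG00000049541.11, minus strand of chromosome 7, 74231499 to 74254458) had 122, 115 and 116 CPM in the DIS3-sh1 libraries, against 89.2, 86.0 and 87.7 CPM in the Scramble libraries. It rose by a log2 fold change of 0.43 ± 0.038 (SE, adjusted p = 2.09e-11), with no overlap of the groups. RFC3 fell by 0.27 ± 0.040 on the log2 scale (SE, adjusted p = 5.16e-07). The large subunit RFC1 rose by a log2 fold change of 0.12 (adjusted p = 0.00522), a call lost without Scramble replicate 3 (0.0896). RFC5 fell by 0.10 (adjusted p = 0.0154), a call lost with upper-quartile scaling (0.623), without Scramble replicate 2 (0.0805) and without DIS3-sh1 replicate 3 (0.0636). WSB2, which overlaps RFC5 on the opposite strand, had a log2 fold change of 1.29. RFC4 averaged 51.4 CPM in DIS3-sh1 and 49.8 CPM in Scramble and was not called (adjusted p = 0.474), although it was called higher with upper-quartile scaling (0.0408). PCNA has 3 pseudogenes named after it in the annotation, so some of its reads may be counted elsewhere.

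The enzymes that finish lagging-strand fragments moved apart. LIG1 (ENSG00000105486.15, minus strand of chromosome 19, 48115445 to 48170603), the ligase that seals the nicks, had 89.4, 86.8 and 87.3 CPM in the DIS3-sh1 libraries, against 53.2, 54.8 and 52.5 CPM in the Scramble libraries. All DIS3-sh1 values were above all Scramble values, and LIG1 rose by a log2 fold change of 0.72 ± 0.043 (SE, adjusted p = 1.93e-15). FEN1 (ENSG00000168496.4, plus strand of chromosome 11, 61792637 to 61797244), the nuclease that removes the flaps before ligation, had 82.9, 80.0 and 86.2 CPM in the DIS3-sh1 libraries, against 128, 119 and 130.3 CPM in the Scramble libraries. It fell by 0.60 ± 0.041 on the log2 scale (SE, adjusted p = 3.63e-14), again without overlap. FEN1 overlaps TMEM258 and FADS2, whose log2 fold changes were 0.31 and -0.29. LIG1 counts were about level with FEN1 counts in DIS3-sh1 and below them in Scramble, at ratios of 1.08, 1.08 and 1.01 in the DIS3-sh1 libraries, against 0.418, 0.459 and 0.403 in the Scramble libraries. These ratios restate the opposite changes of LIG1 and FEN1 and are no further evidence.

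The 3 members of nucleotide supply changed little. TYMS (ENSG00000176890.16, plus strand of chromosome 18, 657604 to 673578), thymidylate synthase, had 164, 162 and 163 CPM in the DIS3-sh1 libraries, against 143, 140.0 and 153 CPM in the Scramble libraries. It rose by a log2 fold change of 0.17 ± 0.035 (SE, adjusted p = 8.79e-05). RRM2 (ENSG00000171848.16, plus strand of chromosome 2, 10120698 to 10131419), the cell-cycle regulated small subunit of ribonucleotide reductase, had 229, 234 and 232 CPM in the DIS3-sh1 libraries, against 274, 272 and 263 CPM in the Scramble libraries. It fell by 0.22 ± 0.028 on the log2 scale (SE, adjusted p = 4.09e-08), whereas RRM1, the large subunit, rose by a log2 fold change of 0.13 ± 0.028 (SE, adjusted p = 0.000135). In all 3 genes the groups were separate but close, and the sum over them was 647 ± 3.05 CPM in DIS3-sh1 and 645 ± 2.01 CPM in Scramble (SD, n = 3 each). RRM2 has 3 and TYMS 2 pseudogenes named after them. Some nucleotide genes outside the members, picked after their values were seen, moved more, such as CTPS1 (log2 fold change -0.72) and RRM2B (0.64). Others moved less, such as DUT (-0.064).

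Among the regulators of the G1/S transition, 4 rose and 2 fell. Of the coding genes at the members' levels 30.8% were called higher, and of all tested genes 34.5%. Of the 4 that rose, only E2F2 kept its call under all 12 alternatives tried. E2F2 (ENSG00000007968.7, minus strand of chromosome 1, 23506430 to 23531220), an activating E2F, had 75.4, 72.1 and 71.8 CPM in the DIS3-sh1 libraries, against 44.4, 41.3 and 48.5 CPM in the Scramble libraries. The groups were well apart, and E2F2 rose by a log2 fold change of 0.71 ± 0.052 (SE, adjusted p = 1.96e-13). E2F1 rose by a log2 fold change of 0.16 (adjusted p = 0.0103), a call lost without DIS3-sh1 replicate 1 (0.0889) or Scramble replicate 2 (0.0531), and E2F3 fell by 0.21 ± 0.038 on the log2 scale (SE, adjusted p = 1.2e-05). CDC25A (ENSG00000164045.12, minus strand of chromosome 3, 48157146 to 48188402), the phosphatase that activates cyclin-dependent kinases at this transition, had 130.1, 131 and 130.1 CPM in the DIS3-sh1 libraries, against 158, 155 and 162 CPM in the Scramble libraries. It fell by 0.28 ± 0.033 on the log2 scale (SE, adjusted p = 9.67e-09). The calls of both E-type cyclins, the activating partners of CDK2, depended on single libraries. CCNE1 averaged 17.6 ± 1.47 CPM in DIS3-sh1 and 14.8 ± 1.41 CPM in Scramble (SD, n = 3 each) and rose by a log2 fold change of 0.25 ± 0.087 (SE, adjusted p = 0.0118). That call was lost without Scramble replicate 1 (adjusted p = 0.0816), without Scramble replicate 3 (0.0600) and without DIS3-sh1 replicate 3 (0.101). CCNE2 averaged 30.1 ± 1.75 CPM in DIS3-sh1 and 26.5 ± 3.11 CPM in Scramble (SD, n = 3 each), with overlapping groups, and rose by a log2 fold change of 0.18 ± 0.073 (SE, adjusted p = 0.027). Its call was lost with DESeq2 (0.0845) and without Scramble replicate 1 (0.249) or 2 (0.0953) or DIS3-sh1 replicate 2 (0.0942) or 3 (0.0883).

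SLBP (ENSG00000163950.13, minus strand of chromosome 4, 1692800 to 1712555), which binds the stem-loop of replication-dependent histone mRNAs and is needed for their processing, had 75.0, 73.8 and 71.3 CPM in the DIS3-sh1 libraries, against 88.0, 91.4 and 92.7 CPM in the Scramble libraries. It fell by 0.30 ± 0.041 on the log2 scale (SE, adjusted p = 1.22e-07), and its groups did not overlap. CHAF1B (ENSG00000159259.8, plus strand of chromosome 21, 36385378 to 36419015), a subunit of the CAF-1 chaperone that places histones on new DNA, had 85.7, 88.1 and 85.1 CPM in the DIS3-sh1 libraries, against 76.0, 78.5 and 77.4 CPM in the Scramble libraries. It rose by a log2 fold change of 0.16 ± 0.041 (SE, adjusted p = 0.000969). CHAF1A, the largest CAF-1 subunit, averaged 136 CPM in DIS3-sh1 and 134 CPM in Scramble. Its groups overlapped and it was not called (log2 fold change 0.017 ± 0.034 (SE, adjusted p = 0.675)), although it was called higher with upper-quartile scaling (adjusted p = 0.0125).

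**Figure D2:**
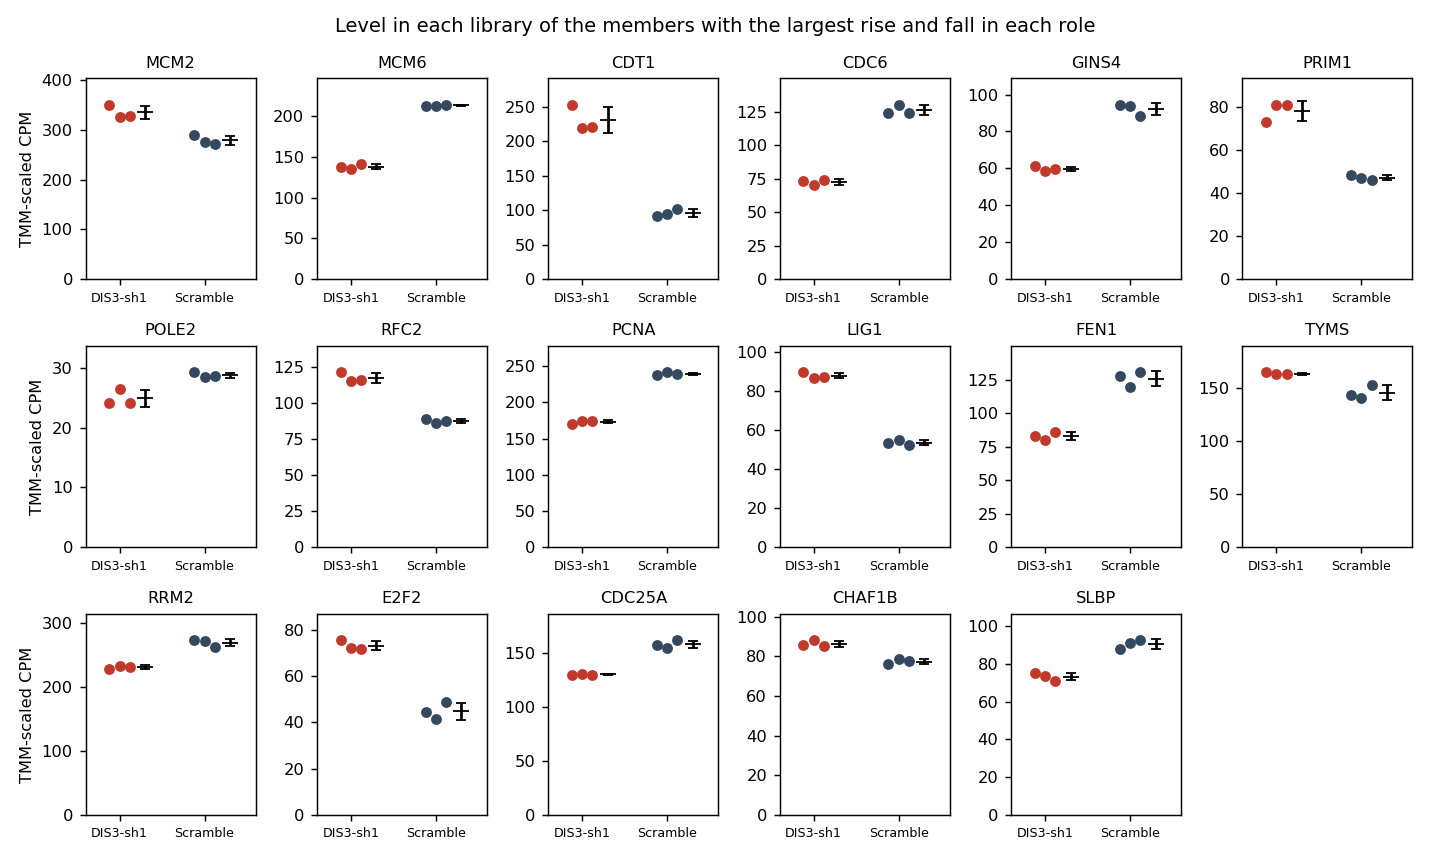
TMM-scaled CPM (y axes, from 0) in each DIS3-sh1 library (red) and each Scramble library (dark blue) for the genes with the largest rise and fall in each role; the black mark beside the points is the mean ± SD of 3 libraries. In each panel the DIS3-sh1 points lie wholly above or wholly below the Scramble points, most widely for CDT1, at 231 and 95.9 CPM on average.

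Levels of different genes were set side by side per kilobase of exon, as CPM per kb. PCNA was the highest member in both groups, at 118 ± 1.38 in DIS3-sh1 and 163 ± 1.20 in Scramble (mean ± SD, n = 3 each), and CCNE1 and CCNE2 were the lowest, at 5.79 and 6.03 CPM per kb in Scramble. Within the MCM ring the order of subunits by this measure differed between the groups. MCM7 was the highest in Scramble, with 87.1 ± 3.32 in DIS3-sh1 and 94.6 ± 0.937 in Scramble, and MCM3 reached 89.1 ± 2.11 in DIS3-sh1 and 76.7 ± 2.32 in Scramble. MCM5 was the lowest in both, at 18.2 ± 0.469 in DIS3-sh1 and 21.7 ± 0.761 in Scramble. Subunits that are present in equal number in the ring thus differed up to 4.89-fold in level per kb in DIS3-sh1 and 4.37-fold in Scramble. In the loader RFC2 was highest in DIS3-sh1 and RFC3 in Scramble, and in the polymerase alpha-primase complex PRIM1 was highest in DIS3-sh1 and POLA1 in Scramble. For GINS the order per kb of annotated exon was the same in both groups. GINS2 was highest at 20.3 ± 0.452 in DIS3-sh1 and 27.7 ± 1.46 in Scramble, and GINS3 lowest at 7.58 ± 0.168 in DIS3-sh1 and 10.00 ± 0.513 in Scramble. Exon length is that of all annotated exons of a gene, so the isoforms in use can move these levels. The longest coding transcript can be much shorter, at 3534 bases against 7.338 kb for MCM5 and 2274 bases against 5.105 kb for GINS3. MCM7 had the highest CPM of the ring in DIS3-sh1 and its shortest transcript (3084 bases), so by transcript length MCM7 would lead there too. The orders and spans above hold for annotated exon length and were not recomputed with transcript length.

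**Figure D3:**
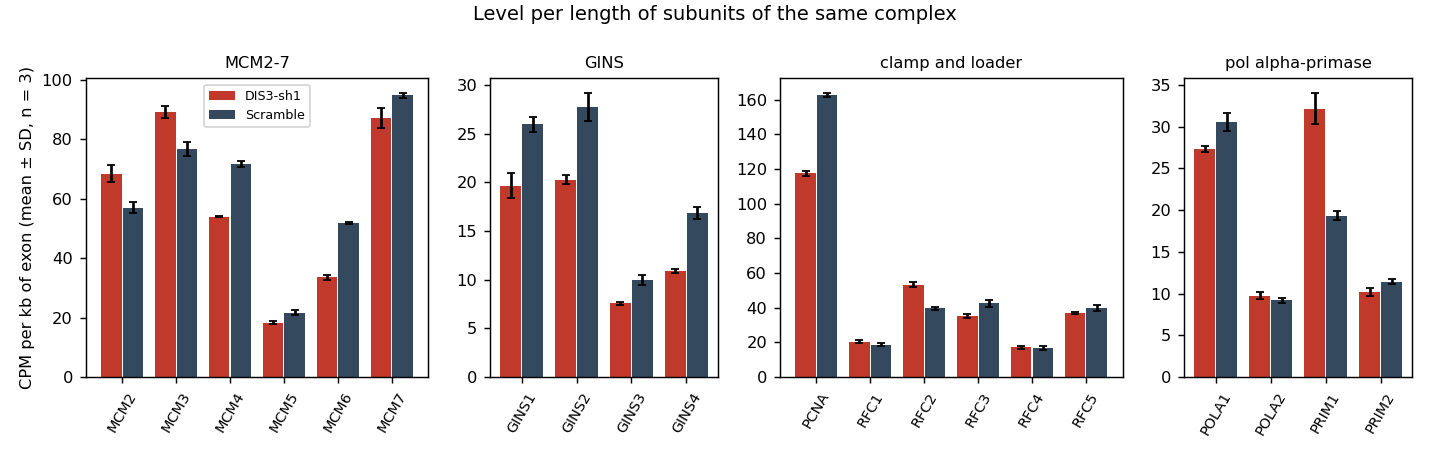
Level in CPM per kb of annotated exon (y axes, each panel with its own scale from 0) of the subunits of the MCM ring, GINS, the PCNA clamp with its RFC loader, and polymerase alpha-primase, in DIS3-sh1 (red) and Scramble (dark blue); bars are means and whiskers SD of 3 libraries. MCM2 and MCM3 are higher and the other MCM genes lower in DIS3-sh1, all 4 GINS genes are lower, and PRIM1 is the tallest bar of its complex in DIS3-sh1 only.

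Members that rose tended to have transcripts richer in G and C. The longest coding transcript had a median GC content of 53.3% in the 18 members that rose (36.9% to 65.0%), 45.2% in the 24 that fell (39.1% to 57.6%) and 51.4% in the 5 not called. Across the 47 members, the log2 fold change went with GC content at Pearson's r = 0.49 and Spearman's rho = 0.40, and across 13599 tested coding genes at 0.17 and 0.16. These points share the same 6 libraries, and the part of base composition in the changes was not tested. The span of the gene showed no such trend among members (r = -0.10, rho = -0.02). Of the 47 members, 14 overlap another coding gene in GENCODE 29 and 8 have pseudogenes named after them.

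Another 57 genes of replication and G1/S control that are not members held 32 called lower (56.1%), 12 called higher and 13 not called, where 49.7% of the coding genes at the members' levels and 32.6% of all tested genes were lower. Their median log2 fold change was -0.18. With upper-quartile scaling 29 were lower and 16 higher. The largest falls were in ASF1A, a histone chaperone (-1.12 ± 0.075), TOP1, topoisomerase I (-1.08 ± 0.033), POLE4 (-0.93 ± 0.088) and POLE3 (-0.87 ± 0.031), the small histone-fold subunits of polymerase epsilon, and DBF4, the activator of CDC7 (-0.79 ± 0.047, SE). TOP1 averaged 127 ± 5.68 CPM in DIS3-sh1 and 268 ± 2.46 CPM in Scramble (SD, n = 3 each). Both small subunits of polymerase epsilon thus fell more than POLE2, while the catalytic POLE rose. The largest rises were in RBL2, the pocket protein p130 (1.13 ± 0.041), RRM2B, the alternative small subunit of ribonucleotide reductase (0.64 ± 0.049), RNASEH2A, the catalytic subunit of RNase H2 (0.42 ± 0.054), DSCC1 of an alternative clamp loader (0.41 ± 0.056) and ORC3 (0.38 ± 0.047). RBL2 averaged 144 ± 6.57 CPM in DIS3-sh1 and 65.9 ± 2.21 CPM in Scramble (SD, n = 3 each).

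A few of these genes bear on the members above and were picked after their values were seen. GMNN, whose protein geminin binds and blocks CDT1, fell by 0.57 ± 0.049 on the log2 scale (SE, adjusted p = 7.39e-12), averaging 54.4 ± 1.20 CPM in DIS3-sh1 and 80.8 ± 5.67 CPM in Scramble (SD, n = 3 each). RB1, the retinoblastoma protein gene, fell by 0.76 ± 0.040 on the log2 scale (SE, adjusted p = 5.88e-17), in the direction opposite to RBL2, while RBL1, the remaining pocket protein gene, averaged 77.4 CPM in DIS3-sh1 and 78.0 CPM in Scramble and was not called (adjusted p = 0.824). In the origin recognition complex, ORC4 fell by 0.72 ± 0.054 on the log2 scale (SE, adjusted p = 4e-13) and ORC5 fell by 0.24, so that with the members 2 of its genes rose (ORC1 and ORC3) and 4 fell (ORC2, ORC4, ORC5 and ORC6). CDK2, the kinase partner of cyclin E, averaged 94.7 CPM in DIS3-sh1 and 90.3 CPM in Scramble and was not called (adjusted p = 0.143).

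Mitosis genes, listed for comparison, were lower for 23 of 30 and higher for 5, with a median of -0.39. The largest falls were in CDC20, which activates the anaphase-promoting ubiquitin ligase (-1.23), the kinase gene PLK1 (-0.82), CCNB1, cyclin B1 (-0.78), and the kinesin genes KIF20A (-0.71) and KIF23 (-0.64). The 5 that rose were PRC1, a bundler of spindle microtubules (0.77), CDC25B (0.34), KIF2C (0.32), CDC25C (0.18) and TOP2A (0.14). As shares of each list, 51.1% of the replication genes, 56.1% of the other replication and G1/S genes and 76.7% of the mitosis genes were lower, against 49.7% of the coding genes at the members' levels and 32.6% of all tested genes. The difference between the lists was not tested.

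**Figure D4:**
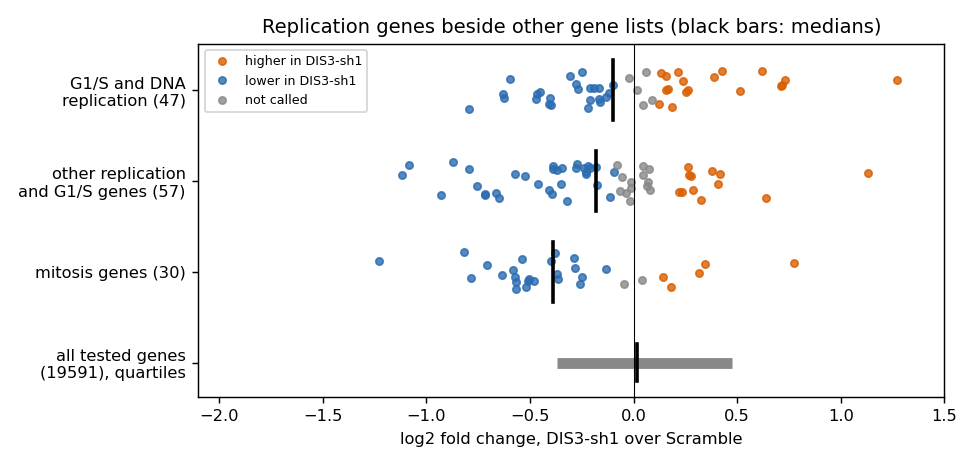
Log2 fold change in DIS3-sh1 over Scramble (x axis) of each gene of 3 lists, with orange for genes called higher, blue for lower and grey for not called; points are spread vertically at random, black bars are list medians, and the grey bar spans the quartiles of all tested genes. The medians lie at -0.10 for the 47 replication genes, -0.18 for the 57 other replication and G1/S genes and -0.39 for the 30 mitosis genes, and at 0.02 for all tested genes.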

How the data were processed

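The values deposited are expected counts, in which a gene's reads may add up to a fraction; of the nonzero values, 53.2% to 56.0% per library were whole. Per the submitters' processing notes, the authors used featureCounts 1.5.1, HISAT2 2.1.0, Bowtie2 2.3.5 and SAMtools with genome build hg38. The role of each tool, the annotation and the use of strand are not given in the sources used here, so reads of pseudogenes and overlapping genes may be split. The 3 columns whose names match no label were not used, and DIS3-sh2 could not be compared as had been planned.

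Values were rounded to whole counts and tested with edgeR 4.0.16 in R 4.3.3 on 6 libraries: TMM scaling, the expression filter by group, group as the only term, and edgeR's two-sided quasi-likelihood F-test in its robust form. P-values were adjusted by Benjamini-Hochberg over 19591 genes, with a threshold of 0.05. The SE was the size of the log2 fold change over the root of F. Levels are TMM-scaled CPM; at these depths 1 CPM rests on about 20 counts, and the lowest count of a member in a library was 288.5 (CCNE1). The labels call the replicates biological without naming their cultures. P-values therefore set the group difference against the spread between these libraries, which may differ from that between independent cultures. Symbols came from a name table (61757 identifiers), and positions, exon lengths and overlaps from GENCODE 29 on GRCh38 (58298 identifiers). Promoters were those of RefSeq on GRCh38.p14. DESeq2 1.42.0 was among 12 alternatives tried.

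The members and the gene lists were chosen with earlier results of these data known. In each role, the called genes with the largest rise and the largest fall were given for every library, and of the other lists the 5 largest rises and falls were named.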

Additional observations from a re-analysis of the deposited data

How the results depend on the processing

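Counts of called members stayed within 1.5 times of those reported under all 12 alternatives. Leaving out each of the 6 libraries in turn gave 16 to 17 members higher and 23 to 24 lower, 11 to 12 and 31 to 32 of the other replication and G1/S genes, 4 to 5 and 22 to 23 of the mitosis genes, and 6426 to 6567 and 6111 to 6269 of all tested genes. With upper-quartile scaling 22 members were higher and 18 lower, with DESeq2 17 and 24, and with RLE scaling, without a filter and with small structural RNA, ribosomal RNA and mitochondrial genes removed, 18 and 24. With the replicate number as a block, 18 members were higher and 24 lower, as without it; libraries of the same number did not deviate together (correlations of 0.037, 0.014 and 0.010 over genes for numbers 1, 2 and 3), so the numbers are not taken as pairs, and the block changed no member's call. Of the 47 members, 33 had the same call under every alternative, and the exceptions are given beside each gene. No called gene among the members, DIS3 and the genes followed from the other lists changed sign under any alternative. Overlapping partner genes, cell type markers, CTPS1, DUT and POLD4 were not followed in this way. Among other named genes, CDC25C lost its call with DESeq2 (adjusted p = 0.0679), without Scramble replicate 3 (0.0640) and without DIS3-sh1 replicate 2 (0.0935), and CDK2 was called higher with upper-quartile scaling (0.00185). No alternative with fewer groups was run, since only 2 groups entered the reported fit. Depth limits CCNE1 most, as the member with the fewest counts. Scaled values do not show a change in the total RNA of a cell.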
